A study of Mus musculus with 6 samples.

Results

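The checkpoint and nectin-binding receptors are surface proteins that set how strongly an NK cell responds to the cell it touches. They were chosen by name as 10 genes, Cd226, Tigit, Cd96, Pvrig, Lag3, Havcr2, Pdcd1, Cd200r1, Lair1 and Lilrb4a, and 9 of the 10 were among the 14490 genes with values. Pdcd1, which encodes PD-1, was not among them and was not analysed here. The values come from mRNA-seq of splenic NK cells purified by FACS from C57BL/6 mice, with 3 WT and 3 cKO samples. WT mice were Mettl3 fl/fl, and cKO mice were Mettl3 fl/fl with Cre from the Ncr1 locus, so both genotypes carried the floxed Mettl3 alleles and only cKO carried Cre. The Ncr1 locus encodes NKp46, so Cre can also act in other innate lymphoid cells that make it. The study's mice were aged 6 to 10 weeks. Nothing in the labels says that the 3 samples of a genotype came from separate animals, so p-values measure only the spread between these samples, which may be technical. The question was which transcripts differ in NK cells that lack METTL3, the methyltransferase that writes the m6A mark on mRNA.

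Cd226, Tigit, Cd96 and Pvrig form a competing set. CD226 activates NK cells, whereas TIGIT and PVRIG inhibit them and CD96 is mostly described as inhibitory in mice, and they share nectin and nectin-like ligands such as PVR. LAG-3, TIM-3 and PD-1 are checkpoint receptors best known from exhausted T cells, and TIM-3 and LAG-3 are also made by NK cells. CD200R1, LAIR-1 and the mouse LILRB4 receptor (gp49B) dampen signalling after binding CD200, collagens and other ligands.

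Among the 9 receptors, Lilrb4a fell, Pvrig fell to a lesser degree and Tigit rose in cKO, whereas the other 6 did not pass the test. The values are normalized counts, which are read counts of a gene divided by the size factor of the sample, and the genotypes were compared by limma on log2(normalized count + 1) with p-values adjusted over all 14490 genes. At an adjusted p under 0.05, 3 of the 9 receptors were called, 1 higher and 2 lower in cKO. Of all genes 36.6% were called, 17.8% higher and 18.8% lower, so the share of receptors called was near that of all genes. The genotypes did not overlap for 3 of the 9 receptors and for 45.7% of all genes. None of the 9 met the rule in the study's methods, an unadjusted p under 0.05 and a log2 change larger than 1 in either direction, which 1.75% of all genes met. The unadjusted p was under 0.05 for 3 of the 9, the same receptors. The median log2 fold change was −0.0022 over the 9 receptors and 0.0014 over all genes.

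The libraries held 55965515 to 71464042 reads on the listed genes, as inferred from the steps of the deposited values. Mettl3 had 1303, 1258 and 1192 normalized counts in the WT samples and 297, 299 and 405 in the cKO samples, so every library matched its label. The 9 NK cell markers were listed with 13787 to 257860 normalized counts each, and 6 of them, Ncr1 included, were lower in cKO. For Ncr1, the Cre allele at its own locus, present only in cKO, and the loss of METTL3 cannot be told apart. Genes taken as markers of other cell types were also listed. Some were at levels near those of NK markers, such as Trbc1 at 15069 ± 448 (SD, n = 3) normalized counts in WT. Which cells made these transcripts was not tested, so their levels do not give the share of other cells. The 8 B cell markers summed to 1338–1369 normalized counts in WT and 1828–1885 in cKO, and 6 of them rose. The 7 listed myeloid and dendritic markers of 12 summed to 10473–10973 in WT and 8764–9473 in cKO, with 3 higher and 2 lower. Zbtb46 (4284 in WT, 2701 in cKO) and Lyz2 (2186 and 1663) were lower, whereas Cd14, Adgre1 and Xcr1 were higher. S100a8, S100a9, Mpo, Siglech and Clec9a were not listed. The 9 listed T cell markers of 10 summed to 33303–35703 in WT and 28405–29259 in cKO, with 3 lower. Trbc1, Cd28 (11867 in WT) and Trbc2 (4717 in WT) made up most of this sum. Cd28, Trbc2 and Cd3g were the lower ones. In WT, Cd3e averaged 151, Cd4 95.9 and Cd8a 45.2. Cd8a and Trac were higher in all cKO than in all WT samples but were not called (limma adjusted p = 0.0514 and 0.0750). The 6 ILC1 markers summed to 2044–2100 in WT and 2387–2528 in cKO, with 1, Il7r, higher. The 3 listed erythroid and platelet markers of 6 summed to 649.6–722 in WT and 546–735 in cKO, and none was called (0 by limma, also at an unadjusted p under 0.05).

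Markers of NK cell stages moved in both directions. Of the 7 mature stage markers 4 were called, with Cx3cr1 (log2 fold change 0.54), S1pr5 (0.49) and Prdm1 (0.27) higher and Klrg1 (−0.55) lower in cKO. Of the 7 immature stage markers 3 were called, with Ltb (0.64) and Ctla2a (0.24) higher and Kit (−0.53) lower. The mature markers summed to 230130–231650 normalized counts in WT and 232730–241300 in cKO, and the immature markers to 99347–106040 and 104220–108400. Gzmb (141600 in WT) and Itgam (51065) made up most of the mature sum, and Xcl1 (64250) most of the immature sum. None of them was called, so the sums say little about the balance of stages. The part of these stages and of the other cells in the receptor values was not tested. In bulk samples, fewer cells that make a transcript and less of it per cell cannot be told apart.

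**Figure D1:**
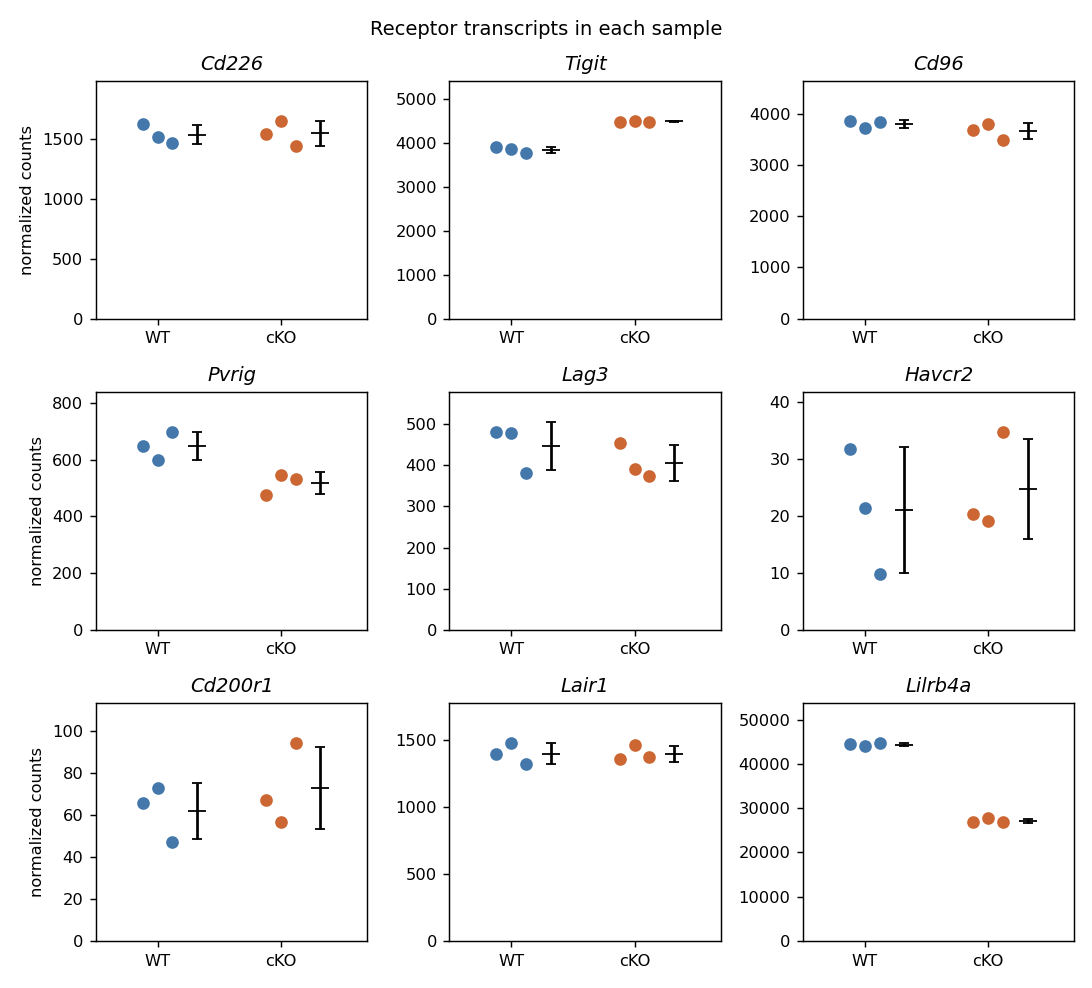
Normalized counts (y axis, from 0, with its own scale in each panel) of the 9 listed receptors in the 3 WT and 3 cKO samples. Points are samples, and the black mark beside them is the mean with its SD. The 2 genotypes are apart for Tigit, Pvrig and Lilrb4a and overlap for the other 6.

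Tigit encodes an inhibitory receptor that binds PVR with high affinity. It had 3904, 3850 and 3755 normalized counts in the WT samples and 4479, 4500 and 4479 in the cKO samples. All cKO samples were above all WT samples, and the cKO samples lay closer together than the WT samples. WT samples averaged 3836 ± 75.1 (SD, n = 3) and cKO samples 4486 ± 12.2 (SD, n = 3), an increase of 16.9% with a 95% confidence interval of 10.6% to 23.6%. The log2 fold change was 0.23 with a standard error of 0.0389 (limma adjusted p = 4.2e-05). The exact permutation test over samples gave p = 0.1, two-sided, the smallest p that 3 samples against 3 allow. By unadjusted p, Tigit ranked 1435 among the 14490 genes. Zbtb20, a transcriptional repressor and the only listed gene within 100000 bases of Tigit, had 2953 ± 612 (SD, n = 3) in the WT samples and 2858 ± 517 (SD, n = 3) in the cKO samples (limma adjusted p = 0.775).

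Tigit lies on the minus strand of chromosome 16 at chr16:43648867-43664146 (GRCm38). Its coding transcript holds the letters GGACT, the commonest form of the m6A consensus, at 1 place, or 1.09 per kb. That is close to the median of 1.05 per kb over the transcripts of 11795 listed coding genes, of which 91.6% hold at least 1 GGACT. The letters are a description of the transcript, and no m6A measurement was used here. The place is in the coding sequence at chr16:43659472-43659496, shown 5′ to 3′ along the transcript with GGACT in capitals:
Tigit: tgctgtgctgGGACTcatttgctta

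Pvrig encodes an inhibitory receptor of the same group, best known for binding nectin-2. It had 646, 599.6 and 698 normalized counts in the WT samples and 474, 544 and 532 in the cKO samples. All cKO samples were below all WT samples, by a gap narrower than the spread within either genotype. WT samples averaged 648 ± 49.1 (SD, n = 3) and cKO samples 517 ± 37.7 (SD, n = 3). The level fell by 20.2%, with a 95% confidence interval of the change from −29.8% to −9.34%. The log2 fold change was −0.33 with a standard error of 0.0895 (limma adjusted p = 0.00516, exact permutation p = 0.1). Without cKO replicate 1, which gave the highest adjusted p of the fits that left out 1 sample, the log2 fold change was −0.26 (limma adjusted p = 0.0419).

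Pvrig lies on the plus strand at chr5:138341961-138343557 (GRCm38). A copy annotated as a pseudogene, Pvrig-ps, lies 16281 bases away and was listed at 13.5 ± 4.08 (SD, n = 3) normalized counts in the WT samples and 21.6 ± 11.9 (SD, n = 3) in the cKO samples. No stretch of 150 bases, the read length, was identical between the transcripts, with 0 of 931 windows of Pvrig found in Pvrig-ps. The Pvrig transcript holds GGACT at 3 places, or 2.78 per kb, which is at the 96.9th percentile of the coding genes. The place in the coding sequence that lies within 1 exon is at chr5:138343160-138343184, shown with GGACT in capitals:
Pvrig: catggagaatGGACTgtatgctctg

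Cd96 encodes a nectin-binding receptor with an inhibitory motif in its tail. It had 3868, 3718 and 3839 normalized counts in WT and 3692, 3806 and 3490 in cKO, and the genotypes overlapped. It differed by −0.06 on the log2 scale, with a 95% confidence interval from −0.14 to 0.03 (limma adjusted p = 0.321). Cd96 lies on the same chromosome as Tigit, at chr16:46035657-46120251 on the minus strand.

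Cd226 encodes the activating receptor of the set, DNAM-1, which signals together with the integrin LFA-1. It had 1625, 1513 and 1468 normalized counts in WT and 1545, 1653 and 1438 in cKO. The ranges lay over each other almost entirely. The difference on the log2 scale was 0.01, with a 95% confidence interval from −0.12 to 0.13, or from −7.69% to 9.65% on the linear scale (limma adjusted p = 0.929). This difference had the other sign in 4 of the 13 alternative fits. Cd226 lies on the plus strand of chromosome 18, from 89176967 to 89272229.

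The ratio of Tigit to Cd226, each per kb of transcript, was 11.8, 12.4 and 12.5 in the WT samples and 14.2, 13.3 and 15.2 in the cKO samples. All cKO ratios were above all WT ratios, with means of 12.2 ± 0.421 (SD, n = 3) and 14.2 ± 0.959 (SD, n = 3). The ratio of Cd96 to Cd226 was 5.11 ± 0.247 (SD, n = 3) in the WT samples and 4.88 ± 0.130 (SD, n = 3) in the cKO samples, with overlapping samples. Neither ratio involves Pvrig. Of the inhibitory members of the set, Tigit rose and Pvrig fell, whereas Cd96 did not pass the test.

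**Figure D2:**
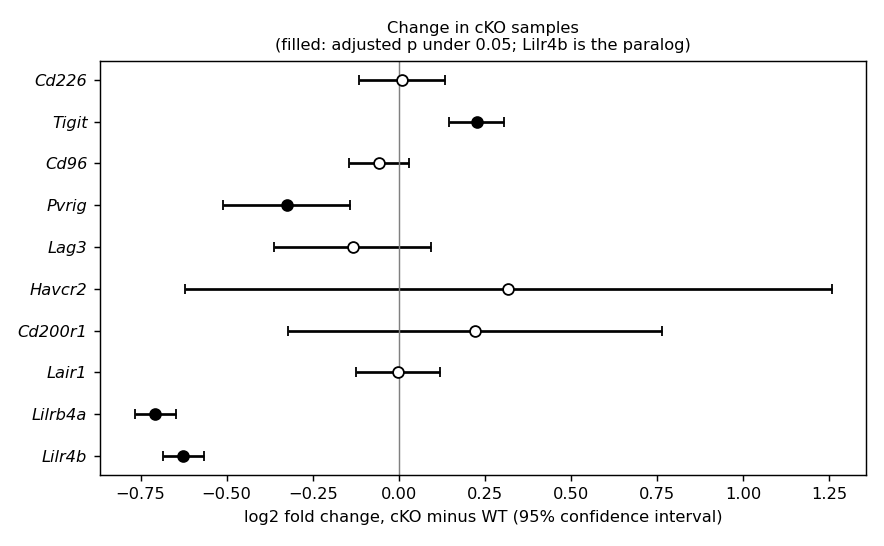
Log2 fold change, cKO minus WT, of the 9 listed receptors and of Lilr4b, the neighbouring copy of Lilrb4a (x axis), with 95% confidence intervals from limma. Filled points have an adjusted p under 0.05. Intervals are narrow for Cd226, Cd96 and Lair1 and widest for Havcr2, which runs from −0.62 to 1.26.

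Lag3 encodes a receptor for MHC class II and other ligands. It had 482, 478 and 381 normalized counts in WT and 455, 391 and 373 in cKO, with overlapping genotypes. The means were 447 ± 57.4 (SD, n = 3) and 406 ± 43.4 (SD, n = 3), and the log2 fold change of −0.13 had a 95% confidence interval from −0.36 to 0.09 (limma adjusted p = 0.379). A fall of up to 22.1% therefore lies within its interval.

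Havcr2, which encodes TIM-3, was near the lower end of what the table lists. It had 31.8, 21.4 and 9.76 normalized counts in WT and 20.3, 19.1 and 34.8 in cKO, from an inferred 10 to 38 reads per sample. In cKO it was higher by 0.32 on the log2 scale with a standard error of 0.457 (limma adjusted p = 0.633). Without WT replicate 3, the sample with 10 reads, this value was −0.13. No difference was detectable at this depth, and the interval of the change runs from −35.0% to 139%.

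Cd200r1 encodes the receptor for CD200 and is also used as a marker of ILC1. It had 65.5, 72.6 and 46.8 normalized counts in WT and 67.1, 56.3 and 94.2 in cKO. The genotypes overlapped, with the highest value in 1 cKO sample. The change on the log2 scale was 0.22, with a 95% confidence interval from −0.32 to 0.77 (limma adjusted p = 0.557). Cd200r4, an activating-type relative 16755 bases away on chromosome 16, was listed at 1532 ± 12.8 (SD, n = 3) in the WT samples and 1362 ± 34.0 (SD, n = 3) in the cKO samples and fell by 0.17 on the log2 scale (limma adjusted p = 0.0173).

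Lair1 encodes an inhibitory receptor for collagen. It had 1393, 1476 and 1319 normalized counts in WT and 1353, 1459 and 1368 in cKO. The cKO samples lay within the range of the WT samples. On the log2 scale the genotypes differed by −0.0022, with a 95% confidence interval from −0.13 to 0.12 (limma adjusted p = 0.983), and it had the other sign in 6 of the 13 alternative fits, among them the one scaled to equal totals (0.05).

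Lilrb4a encodes gp49B, an inhibitory receptor with tyrosine-based inhibitory motifs in its tail. It had by far the highest counts of the 9 receptors, 44442, 43996 and 44778 normalized counts in the WT samples and 26997, 27683 and 26913 in the cKO samples. The genotypes were far apart, and within each the samples spanned a small part of the gap. WT samples averaged 44405 ± 392 (SD, n = 3) and cKO samples 27198 ± 422 (SD, n = 3). The level fell by 38.8%, with a 95% confidence interval of the change from −41.2% to −36.2%. The log2 fold change was −0.71 with a standard error of 0.0289 (limma adjusted p = 2.45e-16, exact permutation p = 0.1). By unadjusted p it ranked 11 among the 14490 genes. Of the 298 genes with at least its mean, itself included, 2 were called with a larger change on the log2 scale. With the fold limit of the study's rule lowered to 1.5-fold, Lilrb4a was the only one of the 9 receptors to meet the rule.

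Lilr4b, the closest copy of Lilrb4a, encodes gp49A, which lacks the inhibitory motifs. The genes lie head to tail on the plus strand of chromosome 10, Lilr4b at chr10:51480632-51486703 and Lilrb4a at chr10:51490956-51496611, with 4252 bases between them. Lilr4b had 61650, 63476 and 61206 normalized counts in WT and 39530, 40792 and 40407 in cKO, again without overlap. It fell by 35.2%, and the log2 fold change was −0.63 with a standard error of 0.0292 (limma adjusted p = 3.51e-15). The copies were therefore both lower, and their ratio, Lilrb4a to Lilr4b per kb, was 0.958, 0.921 and 0.973 in WT and 0.908, 0.902 and 0.885 in cKO.

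How well reads tell the copies apart bears on both values. Over 907 aligned coding bases 96.0% were identical, with a longest identical run of 126 bases. Of the 1232 windows of 150 bases in the Lilrb4a transcript, 92 (7.47%) were identical to a stretch of Lilr4b. A single read from such a window does not tell the copies apart. The reads were paired, and whether the other read of a pair does so was not examined. The annotation also places Gm49339, a protein-coding gene model that was not listed, over both copies on the same strand, and the antisense gene model Gm40645, also not listed, over Lilrb4a. The split of reads between the copies is therefore uncertain, and how the counting treated shared reads and overlapping genes is not given in the sources used here. With the counts of both genes summed, which needs no split, the log2 fold change was −0.66 (limma adjusted p = 8.02e-16). To show what separates the copies, the stretch of 60 coding bases with the most differences is printed with the 9 differing bases in capitals, from chr10:51491572-51491631 for Lilrb4a and chr10:51481278-51481337 for Lilr4b (GRCm38, plus strand):
Lilrb4a: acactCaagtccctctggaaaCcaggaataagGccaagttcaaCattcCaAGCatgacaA
Lilr4b: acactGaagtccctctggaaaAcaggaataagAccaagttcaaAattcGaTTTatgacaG

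The Lilrb4a transcript holds GGACT at 5 places, 3 of them in the coding sequence, or 3.62 per kb, which is at the 99.3rd percentile of the coding genes. Lilr4b also holds 5. The remaining receptors held between 0.890 per kb (Cd226, 40.3rd percentile) and 2.50 per kb (Lag3). Havcr2 was at the 84.6th percentile and Cd200r1 at the 76.8th. A relation between GGACT and the change in cKO was not tested. The coding places of Lilrb4a that lie within 1 exon are at chr10:51491205-51491229 and chr10:51491996-51492020, and the place in Lilr4b that matches the latter, at chr10:51481702-51481726, is shown beside it. GGACT is in capitals:
Lilrb4a, first place: ctggaacccaGGACTgcagtacagg
Lilrb4a, later place: cttggaccctGGACTcacagcatca
Lilr4b, later place: cgtggaccctGGACTcacagcatca

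Levels of different receptors can be compared only per length. Per kb of the coding transcript, Lilrb4a stood first in WT with 32154 ± 284 (SD, n = 3) normalized counts per kb, followed by Tigit with 4174 ± 81.8 and Cd96 with 1744 ± 36.5. Pvrig with 599.95 ± 45.5 and Lair1 with 559 ± 31.5 came next and overlapped between samples. Below them stood Cd226 with 342 ± 17.96, Lag3 with 223 ± 28.7, Cd200r1 with 32.6 ± 7.03 and Havcr2 with 7.71 ± 4.05. All other neighbours in this order had separate ranges in WT. In cKO the order was the same except that Lair1, with 558 ± 23.0, stood above Pvrig, with 479 ± 34.9, and their ranges no longer overlapped. Lilrb4a was at the 98.6th percentile of the 14074 listed genes with a known length, Tigit at the 92.8th and Havcr2 at the 3.96th. Per kb of all annotated exons merged, which also counts retained introns, Lilrb4a had 8495 per kb in WT and remained first, and Lair1 moved to the seventh place with 187 per kb.

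**Figure D3:**
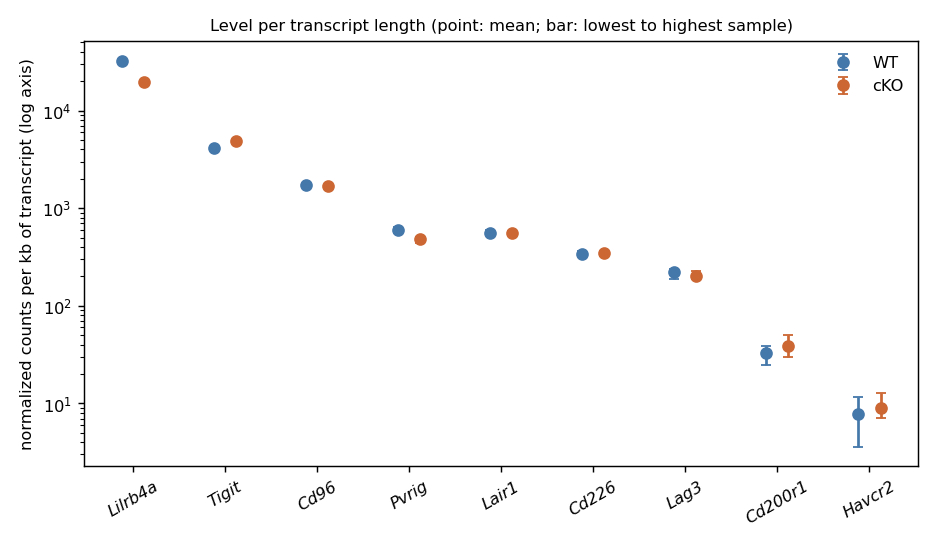
Normalized counts per kb of coding transcript (y axis, log scale) of the 9 receptors, ordered by the WT mean. Points are means of 3 samples and bars run from the lowest to the highest sample, blue for WT and orange for cKO. Levels run from 32154 per kb for Lilrb4a down to 7.71 for Havcr2 in WT.

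Ligands of these and of related receptors were measured in the same samples. The list of 19 genes was chosen by name, holds no collagens and includes Cadm1, a ligand of CRTAM. Of these genes 13 were listed, and 3 were called, 1 higher and 2 lower in cKO. Their median log2 fold change was −0.04, against 0.0014 and 36.6% called over all genes. Pvr, the shared ligand of TIGIT, CD226 and CD96, had 903, 798 and 852 normalized counts in WT and 995, 985 and 1054 in cKO, and rose by 0.25 on the log2 scale (standard error 0.0702, limma adjusted p = 0.00596). Pdcd1lg2, a ligand of PD-1, had 316, 349 and 308 in WT and 198, 194 and 134 in cKO, and fell by 0.90 on the log2 scale (limma adjusted p = 2.37e-05). Lgals9, galectin-9, a ligand of TIM-3, fell by 0.20 on the log2 scale (limma adjusted p = 1.80e-04). Each of these 3 genes had no overlap between the genotypes. Cd274, which encodes PD-L1, had 7977 ± 148 (SD, n = 3) in the WT samples and 7777 ± 251 (SD, n = 3) in the cKO samples, which differed by −0.04 on the log2 scale (limma adjusted p = 0.452). Nectin1, Nectin2, Ceacam1, Fgl1, Clec4g and Cd200 were not listed.

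All 20 genes of a list of signalling partners, chosen by name and not all tied to these receptors, were listed. Of them 13 were called, 5 higher and 8 lower, with a median of −0.05 on the log2 scale. Over all genes 36.6% were called, 17.8% higher and 18.8% lower. Each partner had a mean of at least 2963 normalized counts, against a median of 880 over all genes. Small changes pass the test more easily at such levels, so these shares are not directly comparable. With the samples scaled to equal totals the split of the partners was 7 higher and 6 lower, so the balance of directions depends on the scaling. Sh2d1a, the adaptor SAP, fell by 0.37 and Plcg2, a phospholipase, fell by 0.25 on the log2 scale (limma adjusted p = 2.29e-07 and 1.07e-06). Dok2, a docking adaptor, fell by 0.22 (limma adjusted p = 3.99e-06), whereas Prkcq, a protein kinase C, rose by 0.24 (limma adjusted p = 7.18e-07). Inpp5d, the lipid phosphatase SHIP1 recruited by TIGIT, was higher in cKO by 0.14 (limma adjusted p = 0.00132). Ptpn11, the phosphatase SHP-2, was lower by 0.12 (log2 fold change −0.12, limma adjusted p = 0.0122). Among the 8 partners called lower, Ptpn11 had the smallest change. Whether it was among the 6 called lower with equal totals was not examined, so its call may depend on the scaling. The paper describes the Ptpn11 transcript level as unaltered, and the change here is short of the fold limit of the study's rule. Ptpn6, the phosphatase SHP-1, had 7971 ± 218 (SD, n = 3) normalized counts in the WT samples and 7534 ± 129 (SD, n = 3) in the cKO samples (limma adjusted p = 0.0723).

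Among 19 other checkpoint and co-receptor genes 18 were listed, and 13 were called, 3 higher and 10 lower. The median of the 18 genes was −0.15 on the log2 scale. Of all genes 17.8% were called higher and 18.8% lower. With the samples scaled to equal totals, 3 of the 18 were called higher and 8 lower. Crtam, an activating receptor for the nectin-like molecule CADM1, had 2046, 2078 and 1975 normalized counts in WT and 1286, 1335 and 1240 in cKO, and fell by 0.66 on the log2 scale (limma adjusted p = 2.74e-10). Icos, a co-stimulatory receptor, fell by 0.60 on the log2 scale (limma adjusted p = 1.34e-05). Ctla4, an inhibitory receptor, had 46.7, 78.5 and 73.2 in WT and 144, 145 and 127 in cKO, and its log2 fold change was 1.09 with a standard error of 0.222 (limma adjusted p = 2.92e-04). The higher group consisted of Ctla4, Btla and Cd101, with a mean of at most 139 normalized counts in either genotype. The B cell markers were higher in the same samples, and the part of B cells in these genes was not tested. Activating and inhibitory receptors both stood among the lower genes.

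Of 16 transcription factors and regulators tied to exhaustion 15 were listed, and 9 were called, 5 higher and 4 lower. The median of the 15 genes was 0.07 on the log2 scale, and 36.6% of all genes were called. The lowest mean among the 15 was 855.9 normalized counts, so here too the shares are not directly comparable. With equal totals 7 were higher and 3 lower. Bcl6, a transcriptional repressor, fell by 0.57 and Nr4a3, an orphan nuclear receptor, fell by 0.41 on the log2 scale (limma adjusted p = 1.43e-11 and 2.28e-11). Maf rose by 0.37 and Prdm1, which encodes Blimp-1, rose by 0.27 (limma adjusted p = 1.73e-06 and 9.01e-07). Tox, a regulator of exhausted T cells, had 1828 ± 101 (SD, n = 3) in the WT samples and 1523 ± 14.8 (SD, n = 3) in the cKO samples, which is −0.26 on the log2 scale (limma adjusted p = 4.12e-04).

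**Figure D4:**
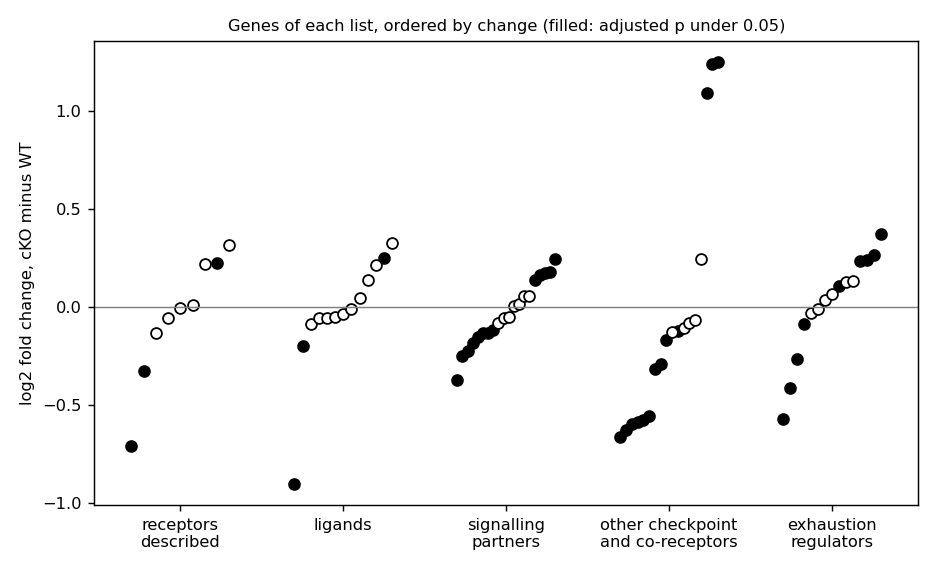
Log2 fold change, cKO minus WT (y axis), of each listed gene among the 9 receptors, 13 ligands, 20 signalling partners, 18 other checkpoint and co-receptors and 15 exhaustion regulators, ordered by value within a list. Filled points have a limma adjusted p under 0.05. The receptors span −0.71 to 0.32, and the highest points, at 1.09 to 1.25, are Ctla4, Cd101 and Btla.

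Receptors can also be placed among other genes by their pattern over the 6 samples, as a description. By Pearson's r of log2(normalized count + 1), the genes most like Cd226 among 11031 genes with a mean of at least 100 were Zfp280d (r = 0.991), Capn1 (r = 0.989) and Cdipt (r = 0.981), and 9 genes had an r over 0.95. Those most like Tigit were Fam53b, 9930022D16Rik and R3hdm1, each with r at or above 0.998, and 800 genes had an r over 0.95. For Lilrb4a they were Cdh22 (r = 0.9994), Itpkc (r = 0.9994) and Lmna (r = 0.9991), and 1049 genes had an r over 0.95. The latter pair of patterns is mostly the difference between the genotypes, which many genes share, and the points share their libraries.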

How the data were processed

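Splenic NK cells of 3 WT and 3 cKO samples were profiled by paired-end mRNA-seq, and the labels gave each sample's genotype and replicate number. The authors used HISAT2 for alignment to GRCm38, featureCounts for gene counts and DESeq2 for normalization. The submitters' processing notes name HISAT2 2.0.5 and 2.0, featureCounts 1.5.0-p3 and DESeq2 1.16.1, and the paper's methods name other versions of these tools. The values the authors deposited for each sample are a signal, the count of a gene divided by the size factor of the sample. The deposited table also holds the authors' mean, fold change, standard error, statistic and p-values, which were not used. Whether counting used strand is not given in the sources used here.

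Values were taken as log2(value + 1), which understates changes of low genes, and cKO was compared with WT in limma 3.58.1 (R 4.3.3) with a variance trend and no covariate. Tests were two-sided, with Benjamini-Hochberg adjustment over 14490 genes, and a filter (3 or more samples reaching a value of 1) removed no gene. The steps were tested on simulated data with known changes. Single genes were also compared by an exact permutation test over samples. All values were whole multiples of a step (tolerance 0.01 reads), and the largest such step was taken as 1 read. In 4 of the 6 samples no value equalled 1 step, so the reads per sample are inferred. Intervals are at 95%, cover the spread between these samples, and are widest for the genes with few reads.

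The receptors, the lists and the alternatives were chosen with earlier results of these data known. All receptors are named. From each list up to 4 genes are named, those called at 0.05 with a mean of 100 normalized counts or more and no overlap between genotypes, by size of change. Ligands and partners of a receptor may be named beside them, and other genes were chosen after their values were seen. Symbols, positions and transcripts came from GENCODE vM21 (GRCm38), which matched 14074 genes (97.1%), and 19 names were spreadsheet dates. Lilr4b was found through a RefSeq synonym. Coding sequences were aligned with Biopython 1.88. Protein sequences were not used here.

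Alternatives used equal totals for all samples, the replicate number as a block, a pseudocount of 0.1, a filter of 1 CPM in 3 or more samples or none, leaving out each sample in turn, and, for the rule, a 1.5-fold limit or the adjusted p. After seeing the data, limma-voom on the recovered reads, a GC and length correction, and the sum of Lilrb4a and Lilr4b were added.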

Additional observations from a re-analysis of the deposited data

How the results depend on the processing

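The number of receptors called stayed at 3 in all 13 alternative fits, and in each of them Tigit (log2 fold change 0.21 to 0.28), Pvrig (−0.38 to −0.26) and Lilrb4a (−0.72 to −0.66) kept their direction and an adjusted p under 0.05. Among all genes 5246 to 5543 were called in the alternatives with all samples and 4417 to 4922 with 1 sample left out. With equal totals, 63.4% of the called genes were higher against 48.5% in the reported fit, and the median change over all genes moved to 0.05 (log2). With a 1.5-fold limit, 1 receptor met the rule. With equal totals, 2 ILC1, 5 T cell and 5 immature NK stage markers were called, against 1, 3 and 3 in the reported fit. Leaving out 1 sample gave 1 to 2 ILC1 markers (2 without WT replicate 2 or 3), 3 to 6 myeloid and dendritic markers (3 without cKO replicate 1 or 3) and 0 to 1 erythroid and platelet markers, (1 without cKO replicate 2). Without 1 sample, the log2 fold change ran from −0.041 to 0.059 for Cd226, from −0.13 to 0.68 for Havcr2 and from −0.042 to 0.039 for Lair1, so that each sign turned in at least 1 of these fits. It also turned with GC and length correction for Cd226 (−0.0011) and Lair1 (0.0015), and for Lair1 with equal totals (0.048) and limma-voom (0.0038). The cause of these turns was not tested, and none passed the test.

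Whether the replicate numbers pair the samples could not be decided. The correlation of same-numbered samples' deviations was −0.0244, 0.123 and 0.0651, against −0.110 to 0.0483 for differently numbered samples. The highest value was that of the samples numbered 2, but not every sample correlated best with its own number. Deviations from means of 3 samples cannot exclude a pairing. With the replicate block, 3 receptors and 5543 genes were called, against 5307 genes in the reported fit. Planned fits with edgeR, DESeq2 and voom with TMM were not run, since the deposited values are not counts and the reads were only inferred from them. The limma-voom fit that was added used the same inferred reads, with the authors' size factors, and shares this limit. Depth limits Havcr2 and Cd200r1 most, and the filter of 1 CPM left out Havcr2.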
